A study of Mus musculus with 9 samples.

Results

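Acetaminophen (APAP) was set against its regioisomer AMAP after 24 h of exposure in TAMH cells, by subtracting the log2 expression value of the AMAP array from that of the APAP array. The difference rests on 2 of the series' 9 arrays, 1 for each compound, and covers all 12393 genes that had a probe set assigned to 1 gene symbol. TAMH is a hepatocyte line derived from a mouse carrying a TGF-alpha transgene, labelled with strain C57BL/6 and tissue liver. The cells received APAP or AMAP at 2 mM each, or control medium with neither, and RNA was taken after 2, 6 or 24 h from cells of 2 dishes per treatment and hybridised to Affymetrix mouse 430A_2 arrays. The design text calls the study preliminary, and the cells are a line in culture, without the other cell types of liver. The study's title calls AMAP the less hepatotoxic compound and links p53 to what distinguishes the 2 exposures. The hydroxyl group sits in the para position of the ring in APAP and in the meta position in AMAP, and the doses and times matched, so 1 pair of compounds was compared.

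With 1 array a side there was no replicate, and no difference has a test, a p-value or an error from replicates. A gene was judged instead by its probe sets, which are separate groups of short probes for the same gene on the same array. Probe sets of a gene share the RNA and the array, so their agreement is a check on the signal and not a replicate of the exposure. The single control array of 24 h is given beside both compounds as a level. Trp53 is not analysed here.

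In hepatocytes, oxidation of acetaminophen gives the reactive metabolite NAPQI, which depletes glutathione and binds proteins. ATF4 is the transcription factor of the integrated stress response: when eIF2-alpha is phosphorylated, translation of the Atf4 mRNA goes up and ATF4 switches on genes for amino acid synthesis, amino acid uptake and tRNA charging. SREBP2 does the same for cholesterol synthesis when sterols in the endoplasmic reticulum are low, and p53 switches on genes of cell cycle arrest, DNA repair and apoptosis after DNA damage.

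At 24 h most ATF4 stress response genes and lipid synthesis genes were lower in APAP than in AMAP, and most p53 targets and secreted liver proteins were higher. Of 31 expressed ATF4 stress response genes, 27 had a lower level in APAP than in AMAP, with a median difference of -0.67 log2 units. Cholesterol synthesis genes were lower in 17 of 20 and fatty acid synthesis genes in 17 of 18. Expressed p53 targets were higher in APAP in 30 of 37, with a median difference of 0.48, and liver secreted plasma proteins in 29 of 41, with a median of 0.37. Over all 6707 expressed genes, 52.2% were higher, 47.3% were lower and the median difference was 0.02. Among members with 2 or more expressed probe sets, all of them were lower for 17 of 19 ATF4 genes and 9 of 11 cholesterol genes, and all were higher for 8 of 14 p53 targets.

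Markers were used to check the label. All 10 measured hepatocyte markers were expressed, 7 of them higher in APAP and 5 by 1.5-fold, with a median difference of 0.51. Albumin (Alb) had a level of 13.04 in APAP, 12.92 in AMAP and 13.17 in control. Of 7 measured cholangiocyte markers 5 were expressed, with Krt7 at 9.41 in APAP, 9.46 in AMAP and 9.11 in control, while Epcam and Aqp1 were below the expressed level. Macrophage markers were expressed in 1 of 12 (Cd14), stellate cell and fibroblast markers in 1 of 12 (Dcn) and endothelial markers in 0 of 12. The summed level of the hepatocyte markers was 14.56 in APAP, 14.03 in AMAP and 14.34 in control, and that of the expressed cholangiocyte markers was 10.31, 10.25 and 10.03 in the same order. Fewer cells of a kind and less RNA per cell cannot be told apart in such bulk samples.

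A technical measure set both treated arrays apart from the array of control cells. On one of the 2 sets of dap control probe sets, added as bacterial RNA to each sample, the middle probe set lay below the 3′ probe set by 1.58 log2 units in APAP and 1.94 in AMAP, and by 0.48 in the control array of 24 h. On the other dap set the middle minus 3′ differences were -0.42 in APAP, -0.73 in AMAP and -0.71 in control, so that set did not share the shift. Of the other bacterial controls, phe had a 5′ minus 3′ difference of -1.94 in APAP, -1.79 in AMAP and -1.20 in control, and thr a middle minus 3′ difference of -0.90, -1.17 and -0.68 in the same order. Further ratios did not set both treated arrays apart. The middle minus 3′ difference of phe was -1.21 in APAP, -0.61 in AMAP and -0.73 in control, and that of lys was -0.63, -0.39 and -0.62. On the dap set with the shift, the 5′ minus 3′ difference was -0.80 in APAP, -1.23 in AMAP and -1.16 in control. The lower quartile of the probe-set values was 3.81 in APAP, 3.84 in AMAP and 3.58 in control. Among the mouse control genes, the transferrin receptor Tfrc had a middle minus 3′ difference of -2.39 in APAP, -1.5 in AMAP and -1.91 in control. What these array measures contribute to any gene's difference was not tested.

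In all, 129 genes (1.04% of 12393) were at least 2-fold higher in APAP, given a value above the table's overall median in the higher array, and 104 (0.839%) were at least 2-fold lower. Few of them could be checked. Of these 233 (1.88%), 71 had 2 or more expressed probe sets, an expressed probe set being one whose mean over the 9 arrays reached the median of such means, 5.66. In 57 of these 71 genes (80.3%) every expressed probe set went the same way, against 52.9% of all 2531 genes that had 2 or more. The 71 were chosen by a large difference on their brightest probe set, while most of the 2531 differed little. The shares are therefore not a like comparison, and no conclusion is drawn from their gap. Every expressed probe set was at least 1.5-fold apart in 30 of the 71, and at least 2-fold apart in 16. The same check gave 20 of 33 genes at 2 h and 44 of 289 at 6 h with every expressed probe set at least 2-fold apart.

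**Figure D1:**
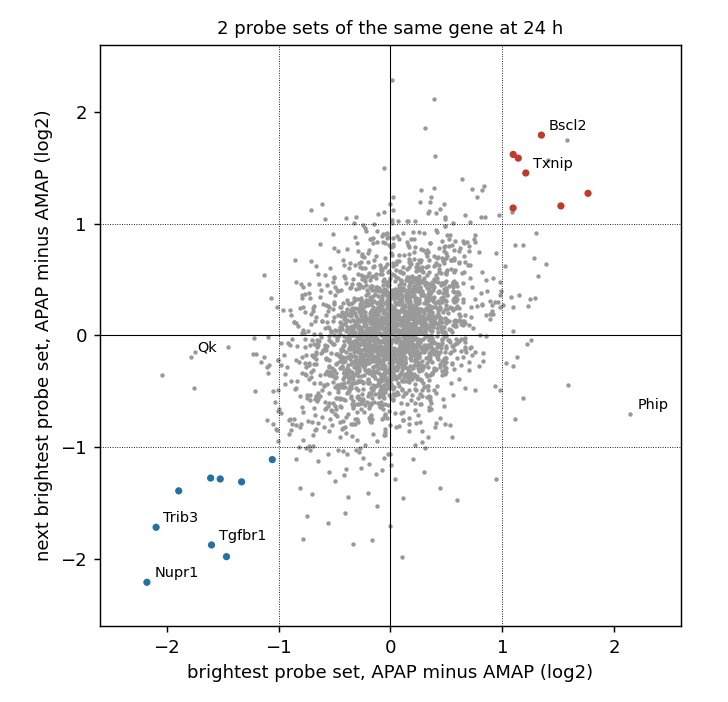
Difference between the compounds at 24 h in the 2 brightest expressed probe sets of each of 2531 genes, as APAP minus AMAP in log2 units, with dotted lines at 2-fold. Coloured points are the 16 genes whose expressed probe sets were all 2-fold apart, red for higher and blue for lower in APAP; Nupr1 and Trib3 lie far out on the diagonal, while Qk, at -1.79 and -0.20, hardly differed on its next probe set and Phip, at 2.14 and -0.70, differed there in the opposite direction.

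The 16 genes whose expressed probe sets all differed 2-fold were 7 higher in APAP (0.277% of 2531) and 9 lower (0.356%). The lower ones included a pair of ATF4 response genes, Nupr1 and Trib3. Nupr1, a small stress-induced nuclear protein, had levels of 6.13 in APAP, 8.31 in AMAP and 8.56 in control on its brightest probe set and 6.11, 8.32 and 8.24 on the other. Its differences between the compounds were -2.18 and -2.21, which is 4.52-fold lower for the brightest. Trib3, a pseudokinase that restrains ATF4 and AKT, had levels of 6.64 in APAP, 8.73 in AMAP and 8.53 in control, and 5.0, 6.72 and 7.36 on its other probe set. The differences were -2.10 and -1.72. In both genes the AMAP and control arrays were close on the brightest probe set and the APAP array lay apart from them. On that probe set the control arrays of 2, 6 and 24 h were at 6.57, 6.94 and 8.56 for Nupr1. For Trib3 they were at 7.02, 6.88 and 8.53, so control was higher at 24 h than before in both genes.

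Chac1, a gamma-glutamylcyclotransferase that degrades glutathione, belongs to the same response but has no other probe set. Its level was 6.20 in APAP, 8.57 in AMAP and 7.62 in control, a difference of -2.37 between the compounds and the lowest among the genes with exactly 1 probe set. For Chac1 the control lay between the compounds.

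The promoters of these 3 genes and of Hmgcs1 are shown because these genes differed by over 2-fold and the regulators of their lists have known sites. The windows are RefSeq sequence of build GRCm38.p6 from 250 bases before to 50 bases after the gene start, written along the gene's strand. Capitals mark the C/EBP-ATF response element TGATGNAAN, the composite site known for ATF4 and its C/EBP partners, or its complement. In Hmgcs1 they mark the sterol regulatory element TCACNCCAC and the CCAAT box with their complements.
Chac1, chr2:119350992-119351291, plus strand: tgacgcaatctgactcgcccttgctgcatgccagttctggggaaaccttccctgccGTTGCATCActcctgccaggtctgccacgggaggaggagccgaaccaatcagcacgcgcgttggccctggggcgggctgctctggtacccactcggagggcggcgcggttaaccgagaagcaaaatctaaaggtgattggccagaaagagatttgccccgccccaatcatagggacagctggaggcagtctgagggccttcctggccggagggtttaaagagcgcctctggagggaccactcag
Trib3, chr2:152344011-152344310, minus strand: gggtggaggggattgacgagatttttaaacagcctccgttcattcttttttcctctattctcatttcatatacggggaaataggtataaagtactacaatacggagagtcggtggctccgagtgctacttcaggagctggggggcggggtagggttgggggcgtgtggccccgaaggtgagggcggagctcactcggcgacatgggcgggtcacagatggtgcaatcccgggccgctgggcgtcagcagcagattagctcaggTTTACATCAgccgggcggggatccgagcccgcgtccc
Nupr1, chr7:126625421-126625720, minus strand: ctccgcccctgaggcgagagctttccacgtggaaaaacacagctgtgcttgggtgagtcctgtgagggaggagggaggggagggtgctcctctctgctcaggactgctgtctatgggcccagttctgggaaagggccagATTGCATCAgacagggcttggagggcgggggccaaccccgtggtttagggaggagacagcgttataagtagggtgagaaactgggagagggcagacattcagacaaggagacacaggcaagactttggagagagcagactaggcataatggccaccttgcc
Hmgcs1, chr13:119690101-119690400, plus strand: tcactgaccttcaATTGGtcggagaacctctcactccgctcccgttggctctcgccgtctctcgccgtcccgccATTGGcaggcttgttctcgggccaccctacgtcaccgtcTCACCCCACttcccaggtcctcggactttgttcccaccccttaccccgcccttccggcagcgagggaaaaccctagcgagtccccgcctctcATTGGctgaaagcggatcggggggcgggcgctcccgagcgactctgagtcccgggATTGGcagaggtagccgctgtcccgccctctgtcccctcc

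On either strand, TGATGNAAN was found in 7 of the 28 ATF4 list genes that had a window (25%) and in 1215 of all 27025 genes with a window (4.5%). The carriers were Chac1, Nupr1, Trib3, Asns, Herpud1, Vldlr and Atf3. The match with 10 bases on each side, in the gene's direction, reads as follows for the carriers not printed above.
Asns, starting 23 bases before the gene start: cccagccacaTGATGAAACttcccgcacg
Herpud1, starting 113 bases before: accacggcggGTTGCATCAgcccgcaccc
Atf3, starting 111 bases before: ccttctcgcaCTTGCATCAccaagtccgc
Vldlr, starting 201 bases before: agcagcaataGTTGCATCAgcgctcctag
The carriers did not move alike. Their differences at 24 h were -2.37 in Chac1, -2.18 in Nupr1, -2.10 in Trib3, -1.21 in Asns and -0.73 in Herpud1, against -0.11 in Vldlr and 0.16 in Atf3. A match describes these letters in this window and is no evidence of binding.

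The difference ran through most of the ATF4 list. Of its 31 expressed members 4 were higher and 27 lower in APAP, 17 of them by 1.5-fold and 7 by 2-fold. Among all expressed genes 6.65% were 1.5-fold lower and 7.87% were 1.5-fold higher. Of its 19 members with 2 or more expressed probe sets, every one of these was lower in APAP for 17, and by 1.5-fold for 11. For comparison, 25.2% of all genes with 2 or more had them all lower, and 1.86% had them all 1.5-fold lower.

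Atf4 itself, the regulator, had a level of 10.86 in APAP, 11.60 in AMAP and 11.18 in control, a difference of -0.75, and its other probe set differed by -1.61. Asns, asparagine synthetase, had levels of 9.34 in APAP, 10.54 in AMAP and 10.45 in control, with differences of -1.21 and -0.50 on its probe sets. Cth, which makes cysteine from cystathionine, was at 7.54 in APAP, 8.76 in AMAP and 9.46 in control. AMAP lay nearer the control than APAP did in Asns and Cth, while for Atf4 the control lay between the compounds. Ddit4, an inhibitor of mTORC1 signalling that p53 also induces, was at 8.23 in APAP, 9.20 in AMAP and 8.43 in control, so that here the AMAP array was the one apart from control.

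The 4 members higher in APAP are named because they are the whole exception to the list. Ppp1r15a, the phosphatase subunit that reverses eIF2-alpha phosphorylation, was at 8.62 in APAP, 8.16 in AMAP and 7.06 in control. Cebpg, a dimerisation partner of ATF4, was at 7.82 in APAP, 7.42 in AMAP and 7.09 in control, and its other probe set differed by -0.14. Atf3 was at 9.84 in APAP, 9.67 in AMAP and 7.73 in control, and Ddit3, which encodes CHOP, was at 9.06, 8.95 and 8.28 in the same order. In all 4 genes both compounds lay above the control on the brightest probe set, while the compounds differed by at most 0.46.

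**Figure D2:**
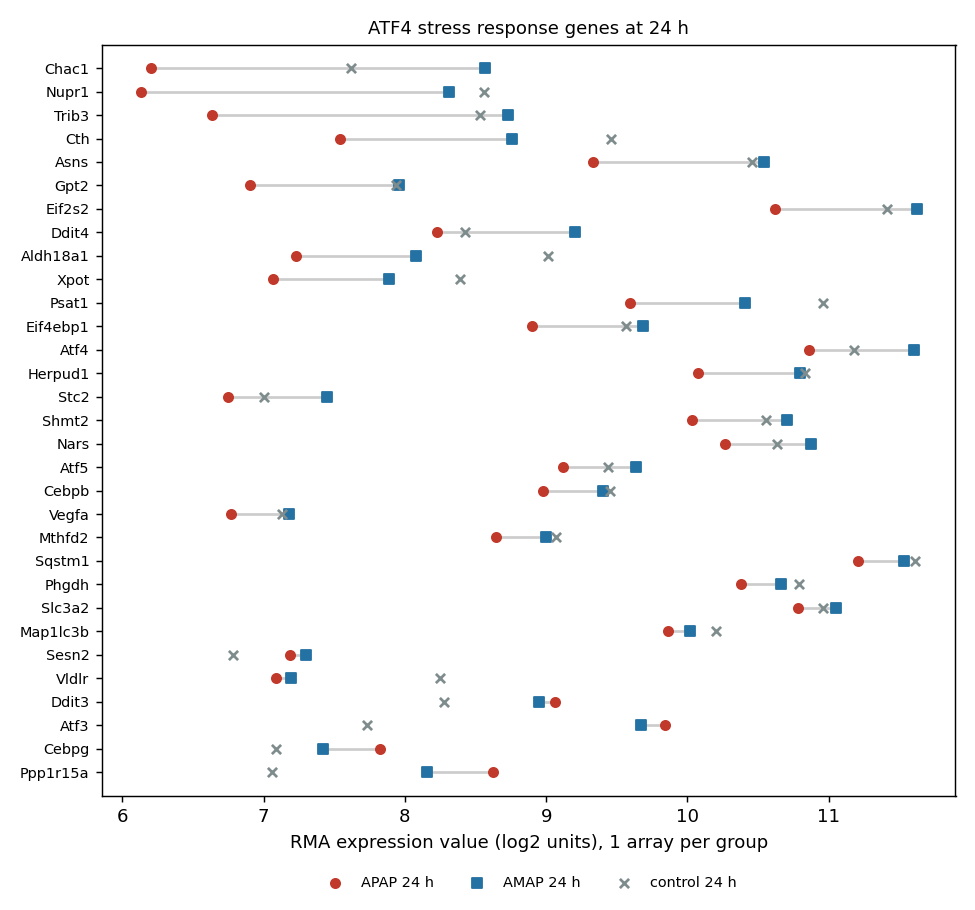
Level of each expressed ATF4 stress response gene in APAP (red circles), AMAP (blue squares) and control (grey crosses) at 24 h, in RMA log2 units with 1 array per group, ordered by the difference between the compounds. The red circle lies left of the blue square in 27 of 31 genes, farthest in Chac1, Nupr1 and Trib3; for most genes the cross lies on the side of AMAP.

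Amino acid synthesis and transport genes were lower in APAP in 18 of 21, with a median difference of -0.56 and 10 members lower by 1.5-fold. This list shares 9 members with the ATF4 list, and among its 12 other members 9 were lower, with a median of -0.22. Psph, the last enzyme of serine synthesis, had a level of 8.05 in APAP, 9.47 in AMAP and 9.54 in control, a difference of -1.42 on its only expressed probe set. Gpt2, the mitochondrial alanine aminotransferase, was at 6.90 in APAP, 7.96 in AMAP and 7.94 in control, and its probe sets differed by -1.05 and -0.79. AMAP and control differed little in both.

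Aldh18a1, which starts proline synthesis, had 4 expressed probe sets, all lower in APAP by between 0.75 and 1.10. On the brightest its level was 7.23 in APAP, 8.08 in AMAP and 9.02 in control. Psat1, the aminotransferase of serine synthesis, was at 9.59 in APAP, 10.41 in AMAP and 10.96 in control, with differences of -0.82 and -1.0. For these genes AMAP too lay below control. Phgdh and Shmt1, also of serine and glycine metabolism and with 4 expressed probe sets each, differed less, by between -0.41 and -0.13 for Phgdh and between -0.23 and 0.11 for Shmt1. Slc6a9, a glycine transporter, was at 6.16 in APAP, 8.20 in AMAP and 7.56 in control, but its difference of -2.04 on the brightest probe set compared with -0.35 on the other.

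The tRNA charging genes, which encode aminoacyl-tRNA synthetases, were lower in APAP in 15 of 18, though only 4 by 1.5-fold, with a median of -0.28. Of 9 members with 2 or more expressed probe sets, 8 had all of them lower. Sars was at 10.06 in APAP, 10.97 in AMAP and 10.54 in control, with differences of -0.91 and -0.75, and Nars was at 10.27, 10.87 and 10.63 in the same order, with -0.61 and -0.73. Eprs was at 8.24 in APAP, 9.29 in AMAP and 8.84 in control, a difference of -1.05 on the brightest and of -0.35 on the least different of its 3 probe sets. In these 3 genes the control lay between the compounds.

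Cholesterol synthesis genes formed the second block that was lower in APAP, in 17 of 20 expressed genes, 9 of them by 1.5-fold and 3 by 2-fold, with a median of -0.47. Of 11 members with 2 or more expressed probe sets, 9 had all of them lower, and 4 had all of them lower by 1.5-fold. Hmgcs1, the cytosolic HMG-CoA synthase whose promoter is printed above, was covered by 4 expressed probe sets. Their levels were 9.91, 7.21, 8.30 and 8.44 in APAP, 11.44, 8.54, 9.58 and 10.06 in AMAP, and 11.15, 10.02, 10.87 and 9.81 in control. All 4 differed in the same direction between the compounds, by -1.52, -1.33, -1.28 and -1.62. Set against control, however, AMAP was above it on 2 of the probe sets and below it on the other 2. On the latter the APAP array of 6 h, whose dap difference was also shifted, was at 8.19 and 9.00. Control of 6 h was at 8.83 and 9.88 there.

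Further along the pathway, Fdps, farnesyl diphosphate synthase, was at 10.55 in APAP, 11.57 in AMAP and 11.05 in control. Hsd17b7, a sterol reductase, was at 7.77 in APAP, 8.77 in AMAP and 8.13 in control, with differences of -1.01 and -0.94. Mvd, mevalonate diphosphate decarboxylase, was at 6.58 in APAP, 7.42 in AMAP and 6.76 in control, with differences of -0.85 and -0.80. In these 3 genes AMAP was the highest of the 3 arrays. Msmo1, the sterol methyl oxidase, was at 10.19 in APAP, 11.06 in AMAP and 11.13 in control. Idi1, the isopentenyl diphosphate isomerase, shows how a probe set decides the value, since it differed by -0.17 on the brightest and by -1.83 on the other.

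The promoter of Hmgcs1 holds the sterol regulatory element, which occurred in 1 of 16 cholesterol genes with a window (6.25%) and in 388 of 27025 genes (1.44%). CCAAT, the binding site of NF-Y, which SREBP2 needs as a partner, occurred in 15 of the 16 (93.8%), in 15 of 28 ATF4 list genes (53.6%) and in 11096 of all 27025 (41.1%).

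Fatty acid synthesis genes were lower in APAP in 17 of 18 but by less, with a median of -0.34, 4 members at 1.5-fold and none at 2-fold. Mlxipl, the glucose-sensing transcription factor ChREBP, was at 8.18 in APAP, 9.06 in AMAP and 8.20 in control. Elovl6, a fatty acid elongase, was at 8.72 in APAP, 9.57 in AMAP and 9.48 in control, with differences of -0.86 and -0.48. Fasn, fatty acid synthase, was at 9.70 in APAP, 10.21 in AMAP and 10.11 in control. APAP was the lowest of the 3 arrays in all 3 genes, although Mlxipl hardly differed between APAP and control. Scd1, the stearoyl-CoA desaturase, differed by -0.01 on its brightest probe set and by -1.06 on the other.

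Fatty acid oxidation genes were divided, with 11 higher, 15 lower and a median of -0.04, but 3 of its members were 2-fold higher in APAP. Ppara, the nuclear receptor of fasting lipid use, was at 7.70 in APAP, 6.45 in AMAP and 7.19 in control. Pdk4, the kinase that shuts off pyruvate dehydrogenase, was at 7.27 in APAP, 6.15 in AMAP and 7.25 in control. Angptl4, an inhibitor of lipoprotein lipase, was at 10.13 in APAP, 9.12 in AMAP and 8.66 in control. All 3 rest on a single expressed probe set, and control matched APAP for Pdk4. Cd36, a fatty acid transporter, went the other way with 6.22 in APAP, 7.08 in AMAP and 7.45 in control and differences of -0.86 and -0.75.

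**Figure D3:**
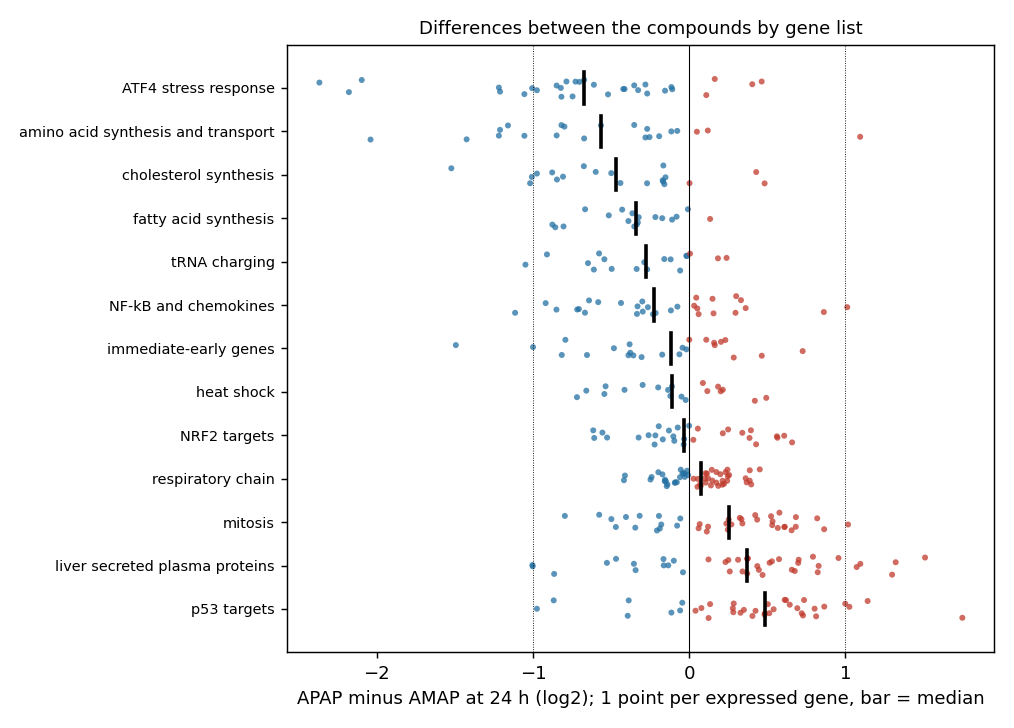
Difference between the compounds at 24 h for every expressed gene of 13 lists, as APAP minus AMAP in log2 units, with 1 point per gene (red above 0, blue at or below 0), a black bar at the median of each list and dotted lines at 2-fold. The medians run from -0.67 for ATF4 stress response genes to 0.48 for p53 targets, and the respiratory chain lies close to 0.

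Among p53 targets, 30 of 37 expressed members were higher in APAP, 14 of them by 1.5-fold and 3 by 2-fold. Only 2 of these 37 also belong to the ATF4 list, and the median over the remaining 35 was 0.48 too. The second probe sets gave less here. Of 14 members with 2 or more expressed probe sets, 8 had all of them higher and 2 had all of them lower, and Ccng1 was the only member with all of them 1.5-fold higher. Over all genes with 2 or more, 27.7% had all of them higher, and 1.46% had all of them 1.5-fold higher.

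Cdkn1a, which encodes the cell cycle inhibitor p21, had a level of 10.85 in APAP, 10.37 in AMAP and 9.43 in control, with differences between the compounds of 0.48 and 0.46. Mdm2, the ubiquitin ligase that p53 induces and that degrades p53, was at 10.27 in APAP, 10.66 in AMAP and 9.32 in control. Its probe sets disagreed, with differences of -0.39 and 0.21. On the brightest probe set of both genes, both compounds lay above control, and the gap between the compounds was smaller than either gap to control. Ccng1, a cyclin, was at 10.98 in APAP, 10.37 in AMAP and 10.32 in control, and its 3 probe sets differed by between 0.61 and 1.45.

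The members with a larger difference rest on 1 expressed probe set each. Dcxr, a carbonyl reductase of xylulose metabolism, was at 9.22 in APAP, 7.47 in AMAP and 6.82 in control, a difference of 1.75. Pml, the scaffold of nuclear bodies, was at 8.51 in APAP, 7.37 in AMAP and 6.77 in control. Perp, a membrane protein of desmosomes and apoptosis, was at 9.75 in APAP, 8.72 in AMAP and 8.67 in control. Control was nearer AMAP than APAP in all 3. Pidd1, a death domain protein, was at 7.79, 6.79 and 6.22 in the same order of groups. Ccnd1, cyclin D1, had probe sets apart in opposite directions, from -0.96 to 1.03.

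Among the other genes 2-fold higher on every probe set, several act in lipid, growth and redox biology. Bscl2, the seipin protein of lipid droplet formation, was at 8.70 and 10.41 in APAP, 6.91 and 9.06 in AMAP, and 6.79 and 8.90 in control, giving differences of 1.79 and 1.35. Ghr, the growth hormone receptor, was at 8.08 and 7.22 in APAP, 6.55 and 6.07 in AMAP, and 6.42 and 5.68 in control, with 1.52 and 1.16. Pdrg1, named for its regulation by p53 and DNA damage, was at 8.42 and 8.51 in APAP, 7.32 and 6.90 in AMAP, and 7.0 and 6.80 in control. In these 3 genes AMAP was within 0.5 of control on every probe set, and APAP stood above both.

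Txnip, which binds thioredoxin and limits glucose uptake, differed in its pattern, since both compounds were above control. Its probe sets were at 10.19 and 10.13 in APAP, 8.98 and 8.68 in AMAP, and 7.67 and 7.74 in control, with differences between the compounds of 1.21 and 1.45. Plod2, a lysyl hydroxylase of collagen, was at 7.86 and 7.14 in APAP, 6.09 and 5.87 in AMAP, and 6.22 and 5.56 in control. Id2, an inhibitor of helix-loop-helix transcription factors, was at 8.56 and 6.43 in APAP, 7.46 and 5.29 in AMAP, and 7.56 and 6.06 in control. AMAP lay below control on both probe sets of Id2, as it did for Slc66a2. Slc66a2, a membrane protein of the PQ-loop family, was at 7.80 and 7.42 in APAP, 6.66 and 5.84 in AMAP, and 6.92 and 6.54 in control, with differences between the compounds of 1.14 and 1.59.

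The remaining genes lower on every probe set span signalling and chromatin. Tgfbr1, the type I TGF-beta receptor, had 3 expressed probe sets at 7.23, 6.46 and 4.84 in APAP, 8.83, 8.33 and 6.50 in AMAP, and 9.91, 7.92 and 7.0 in control, with differences of -1.60, -1.87 and -1.66. Pdgfb, the platelet-derived growth factor B chain, was at 8.55 and 6.48 in APAP, 9.88 and 7.79 in AMAP, and 9.11 and 7.36 in control. For Pdgfb the control lay between the compounds. Aqp9, the glycerol channel of hepatocytes, was at 5.64 and 5.44 in APAP, 7.53 and 6.83 in AMAP, and 7.47 and 6.94 in control, so that AMAP and control were close.

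H1f2, a linker histone, was at 9.42 and 5.50 in APAP, 10.89 and 7.48 in AMAP, and 11.17 and 9.99 in control. Ctbp2, a transcriptional corepressor, was at 6.96 and 5.31 in APAP, 8.57 and 6.59 in AMAP, and 8.40 and 7.95 in control. On the dimmer probe set of both genes AMAP lay well below control, and APAP lower still. The APAP array of 6 h, whose dap difference was also shifted, was low on them too. It was at 6.34 for H1f2 and 5.84 for Ctbp2, against 7.65 and 7.29 in control of 6 h. What the array measure contributes to these values was not tested. Actl6a, an actin-like subunit of SWI/SNF chromatin complexes, was at 6.28 and 6.14 in APAP, 7.33 and 7.25 in AMAP, and 7.66 and 7.62 in control.

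**Figure D4:**
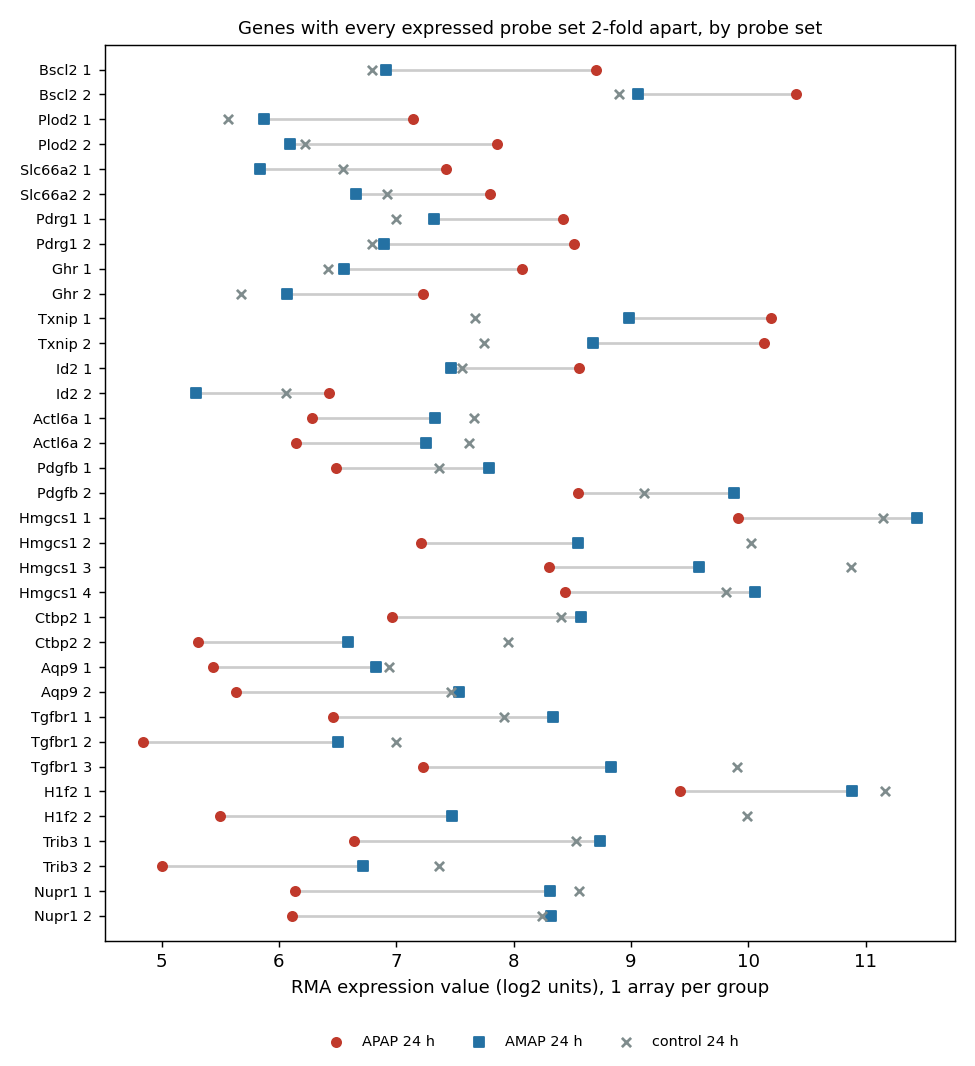
Level on every expressed probe set of the 16 genes whose probe sets were all 2-fold apart, in APAP (red circles), AMAP (blue squares) and control (grey crosses) at 24 h, in RMA log2 units with 1 array per group. Numbers after a symbol count its probe sets; 7 genes at the top are higher in APAP and 9 at the bottom are lower, and the crosses lie mostly nearer the squares.

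Leaving out probe sets that Affymetrix marks as matching several transcripts, 5 of these 16 genes still had 2 or more agreeing probe sets. They were Plod2 and Txnip, higher in APAP, and Hmgcs1, Pdgfb and Tgfbr1, lower. The others, Nupr1 and Trib3 among them, then had fewer than 2 to compare.

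The control array lay nearer AMAP than APAP for most genes with a 2-fold difference, namely for 92 of the 104 lower in APAP and 80 of the 129 higher. It lay nearer APAP for 12 and 49. The same share over all genes was not computed, so these counts cannot be set against it. The median over expressed genes of the difference from control was 0.12 in APAP and 0.10 in AMAP. The dap ratio of the control array differed from that of both treated arrays as given above.

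Secreted plasma proteins of the liver were higher in APAP in 29 of 41, 13 of them by 1.5-fold and 5 by 2-fold. The list shares 7 members with the hepatocyte markers, whose median difference was 0.51, and the median of its 34 other members was 0.37. Apoa1, the main protein of HDL, was covered by 4 expressed probe sets that differed by between 0.91 and 1.30, and on the brightest its level was 12.65 in APAP, 11.35 in AMAP and 11.31 in control. Ahsg, fetuin A, was at 10.27 in APAP, 8.95 in AMAP and 9.23 in control. F12, a coagulation factor, was at 7.47 in APAP, 6.40 in AMAP and 6.33 in control. In these genes APAP stood above both other arrays. Fgb, the fibrinogen beta chain, was at 10.04 in APAP, 8.53 in AMAP and 9.07 in control, a difference of 1.51, while the chains with which it is assembled, Fga and Fgg, added after their values were seen, differed by -0.13 and 0.26.

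The list was not uniform. Hp, haptoglobin, an acute-phase protein, was at 10.99 in APAP, 11.99 in AMAP and 12.10 in control. Serpind1, heparin cofactor II, was at 8.86 in APAP, 9.86 in AMAP and 9.66 in control. Of its 8 members with 2 or more expressed probe sets, 3 had all of them higher and 2 had all of them lower. Liver transcription factors, with a median of 0.03, had 1 member 1.5-fold apart in all 18 expressed, which was Ppara, and Hnf4a was at 9.59 in APAP, 9.80 in AMAP and 9.44 in control.

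Genes of drug metabolism were split. Phase II conjugation genes had 14 higher and 12 lower, with a median of 0.04, and their 2 members that were 2-fold higher were both carboxylesterases. Ces2g was at 7.62 in APAP, 5.62 in AMAP and 5.74 in control, the highest difference, 2.00, among genes with exactly 1 probe set, and Ces2e was at 7.37, 6.08 and 6.08 in the same order. Gstm1, a glutathione S-transferase, was at 9.44 in APAP, 8.78 in AMAP and 8.75 in control, with differences of 0.66 and 0.71. AMAP and control were close for all 3 genes.

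Cytochrome P450 and monooxygenase genes had 6 higher and 7 lower, with a median of -0.10. Fmo1, a flavin monooxygenase, was at 4.72 in APAP, 6.87 in AMAP and 6.78 in control, a difference of -2.15. Cyp39a1, an oxysterol hydroxylase, was at 7.14 in APAP, 8.25 in AMAP and 8.96 in control. NRF2 targets, the antioxidant genes, did not separate the compounds, with 12 higher, 16 lower and a median of -0.04, and 2 members 1.5-fold apart in each direction.

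Other genes with a single probe set ranked among the most different. Slc17a1, a phosphate and urate transporter, was at 5.18 in APAP, 7.43 in AMAP and 7.52 in control. Ubd, a ubiquitin-like modifier induced by cytokines, was at 6.05 in APAP, 8.13 in AMAP and 7.79 in control. On the higher side, Frmd6, a FERM domain protein of Hippo signalling, was at 8.50 in APAP, 6.79 in AMAP and 7.68 in control, and Ubr3, a ubiquitin ligase, was at 6.24, 4.68 and 6.57 in the same order. APAP stood alone for the transporter and the modifier, whereas AMAP stood below both other arrays for Frmd6 and Ubr3.

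Immediate-early genes were lower in APAP in 15 of 24 with a median of -0.12, although both compounds lay above control by 0.27 for APAP and 0.34 for AMAP in the median. Klf10, a TGF-beta-inducible repressor, was at 5.91 in APAP, 7.40 in AMAP and 7.50 in control. Jun, a subunit of AP-1, was at 9.25 in APAP, 10.25 in AMAP and 8.82 in control, with differences of -1.0 and -0.66. Egr1, a growth factor-induced zinc finger factor, was at 10.80 in APAP, 11.45 in AMAP and 9.27 in control. For Jun and Egr1 the order was AMAP, APAP, control from high to low.

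NF-kB targets and chemokines were lower in APAP in 18 of 30 with a median of -0.22, and the chemokines went in both directions. Ccl7 was at 7.25 in APAP, 8.37 in AMAP and 8.07 in control. Ccl5 was at 6.37 in APAP, 5.36 in AMAP and 5.35 in control. Mitosis genes were higher in APAP in 26 of 39 with a median of 0.25, and of 15 with 2 or more expressed probe sets none had all of them 1.5-fold apart. Kif20a, a kinesin of cytokinesis, was at 8.56 in APAP, 7.55 in AMAP and 8.77 in control, and Kif11, the kinesin of spindle assembly, had probe sets that differed by between -0.05 and 2.07.

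Energy and housekeeping lists differed little between the compounds. Respiratory chain genes had 31 higher and 22 lower, with differences between -0.42 and 0.45 and none at 1.5-fold on the brightest probe set. Other expressed probe sets differed by more, with -1.45 for Uqcrc2 and -1.25 for Cox5a, subunits of the chain, and with -1.86 for Psmd6 and -1.24 for Psmb4, subunits of the proteasome. Proteasome genes had a median of -0.06, ribosome biogenesis genes -0.05, DNA replication genes 0.06 and ER chaperones 0.07. Heat shock genes had a median of -0.11, glycolysis and hypoxia genes -0.07, and apoptosis regulators 0.02 with 14 higher and 14 lower. Bok, a BCL2 family member, was at 6.97 in APAP, 8.20 in AMAP and 7.89 in control, and Cflar, an inhibitor of caspase 8, was at 7.73, 6.76 and 7.35 in the same order, with differences of 0.97 and 1.08. Pck2, the mitochondrial PEP carboxykinase, was at 8.44 in APAP, 9.69 in AMAP and 9.39 in control.

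Probe sets of the same gene did not always agree, splicing factors among them. Qk, an RNA-binding protein, was at 6.24 in APAP, 8.02 in AMAP and 9.74 in control on its brightest expressed probe set, a difference of -1.79, against -0.20 on the other expressed one. Srsf10 had 4 expressed probe sets, which differed by between -1.13 and 0.54. Outside the splicing list, Phip, a bromodomain protein, was at 7.72 in APAP, 5.58 in AMAP and 7.90 in control on its brightest probe set, a difference of 2.14, while its lowest expressed probe set differed by -0.70. Eif4g2, a translation factor, differed by between -1.20 and 0.84. Of the 71 genes with 2-fold differences and 2 or more expressed probe sets, 14 had probe sets of opposite sign. Where the brightest probe set differed 2-fold, the size of the next brightest was 0.36 of it in the median.

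Some of the genes 2-fold apart at 24 h were so at the earlier times, and others were reversed. Of the 129 genes 2-fold higher in APAP at 24 h, 48 of 129 were higher at 2 h and 41 of 129 at 6 h. Of all 12393 genes, 5914 (47.7%) were higher at 2 h and 8340 (67.3%) at 6 h, a larger share at both times. Of these 129, 3 were 2-fold higher and 25 were 2-fold lower at 6 h. Of the 104 lower ones, 58 of 104 were lower at 2 h and 51 of 104 at 6 h. Of all 12393 genes, 5819 (47.0%) and 3937 (31.8%) were lower, a smaller share at both times. Of these 104, 15 were 2-fold lower and 9 were 2-fold higher at 6 h. By the rule used at 24 h, 837 of all 12393 genes were 2-fold apart at 6 h in either direction. The 2-fold counts at 6 h among the 129 and the 104 were made without that rule's limit on the level. Their share over all genes in each direction was not computed, so they cannot be set against it. The array of APAP at 6 h had a dap difference of -1.72, like both treated arrays of 24 h. On the AMAP array of 6 h it was -0.44, so the arrays compared at 6 h were unlike in this measure. What that contributes to the 6 h differences was not tested. Genes with a difference of at least 0.5 in the same direction at 2 and 6 h were 1 of the higher and 1 of the lower. Ccl5 was higher in APAP by 0.87 at 2 h, 0.95 at 6 h and 1.01 at 24 h. Tgfbr1 was lower, with differences of -0.81, -0.72 and -1.60.

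ATF4 stress response genes had a median difference of -0.65 at 2 h, 0.37 at 6 h and -0.67 at 24 h, so the order of the compounds turned over and back. Trib3 followed that course, with levels of 6.35 in APAP and 7.31 in AMAP at 2 h, 7.62 and 6.18 at 6 h, and 6.64 and 8.73 at 24 h. The p53 targets had a median of -0.47 at 2 h, 0.04 at 6 h and 0.48 at 24 h. Cholesterol synthesis genes were near 0 before 24 h, at -0.07 and 0.06, and at -0.47 at 24 h. Over all expressed genes the median was -0.003 at 2 h, 0.065 at 6 h and 0.022 at 24 h. The arrays of each time are separate RNA, and whether the times differ was not tested. The 6 h medians come from the arrays that were unlike in the dap measure.

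**Figure D5:**
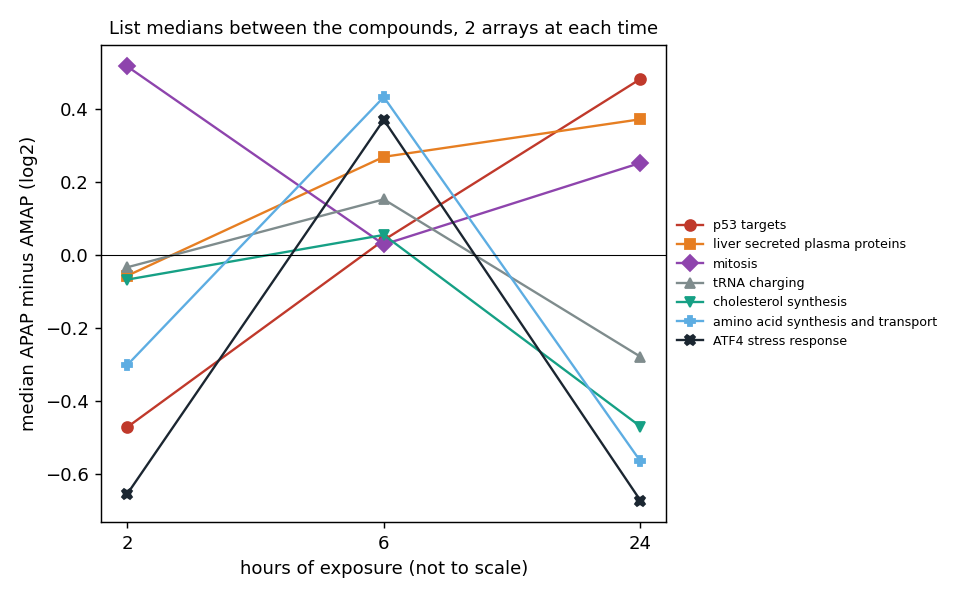
Median difference between the compounds, APAP minus AMAP in log2 units, for 7 gene lists at 2, 6 and 24 h, each point from 2 arrays with no replicate; the time axis is not to scale. ATF4 genes and amino acid genes are below 0 at 2 h, above 0 at 6 h and below 0 at 24 h, while p53 targets run from -0.47 at 2 h to 0.48 at 24 h.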

How the data were processed

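RNA of TAMH cells was hybridised to Affymetrix mouse 430A_2 arrays, 1 per treatment and time. Each deposited value is the log2 signal of a probe set, obtained by the authors with RMA, for which the submitters' processing notes name Affymetrix Expression Console. The sources used here do not give its version or say whether the 9 arrays were normalized together. Because RMA equalises the arrays' intensity distributions, it hides a change in total RNA, and dim probe sets differ by less than they should. Sample titles gave the groups.

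Of 22690 probe sets, 64 control probe sets were left out. GEO's platform annotation gave 1 symbol for 20380, several for 691 and none for 1555, and only those with 1 were used. A gene was represented by its probe set with the highest mean over the 9 arrays. Expressed genes had a mean of at least 5.66. A 2-fold gene differed by at least 1 with the higher array at 5.65 or more, the overall median. A gene agreed when it had at least 2 expressed probe sets that all passed the fold in the same direction.

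The comparison and the 34 gene lists (pathways in 29, markers of cell types in 5), with 1026 of 1127 symbols matched, were chosen with earlier results of these data known. Named genes were those agreeing at 2-fold, the 4 highest and 4 lowest with exactly 1 probe set, up to 6 expressed members per list by size, Cdkn1a and Mdm2, genes by their course over the times, and up to 6 with opposed probe sets. Named outside this rule, after their values were seen, were Ppp1r15a, Cebpg, Atf3, Ddit3, Fga, Fgg, Phgdh, Shmt1, the markers Alb, Epcam and Aqp1, and Asns, Herpud1 and Vldlr as motif carriers. Alternatives were cyclic loess and quantile normalization (limma 3.58.1 in R 4.3.3), centring, other filters, folds and probe-set rules. The agreement count was tested on simulated data, in which probe sets of a gene spread less than the 0.367 found here. That checks the code and not the count at the spread of these data. Promoters are RefSeq windows of GRCm38.p6, matched by symbol. The number of arrays limits the precision.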

Additional observations from a re-analysis of the deposited data

Results flagged for a closer look

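A difference between the compounds that turned round between 2 h and 24 h drew attention in the p53 target list and in 5 genes. In each case both times hold 1 array per compound, and the difference between the times was not tested. The median of the p53 targets was 0.48 at 24 h, with APAP higher, and -0.47 at 2 h. Txnip was higher in APAP by 1.21 at 24 h and had a difference of -2.48 at 2 h, from levels of 7.46 in APAP and 9.94 in AMAP.

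The other genes had low levels at 2 h, and Pm20d1, Acaa1b and Abat lay below 5.66 on the APAP array of that time. Pm20d1, which makes N-acyl amino acids, was higher in APAP by 2.14 at 24 h and had -1.21 at 2 h. Acaa1b, a peroxisomal thiolase, had 1.49 at 24 h and -1.09 at 2 h. Abat, which degrades GABA, had 1.13 at 24 h and -1.61 at 2 h. Ctsf, a lysosomal cathepsin, had 1.08 at 24 h and -1.07 at 2 h. At 24 h AMAP and control had the same level in Pm20d1, 5.77, and in Acaa1b, 5.51, and APAP lay above them at 7.91 and 7.0.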

How the results depend on the processing

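No paired analysis was possible because each group holds 1 array. The number of arrays limits all values. Without probe sets that can match several transcripts, agreeing genes were 2 higher and 3 lower, the tRNA charging median was -0.38 and Srsf10 turned to 0.54. At 1.5-fold there were 601 genes higher in APAP and 498 genes lower in APAP, and 37 and 47 agreed. Using genes whose probe sets had the same sign, medians were -0.74 for amino acid genes, -0.46 for tRNA charging and -0.67 for cholesterol synthesis. They were 0.66 for secreted proteins, from 3 members higher and 2 lower, and 0.11 for mitosis. These genes were kept by the same 24 h differences, which tends to leave out members near 0, so the medians are no separate check. The share of 2-fold genes higher in APAP was 55.4% as reported, 47.0% with cyclic loess (109 higher and 123 lower) and 46.3% with centring (105 and 122). The median difference of expressed genes was -0.03 with centring and 0.02 as reported. Of 202 named genes, all moved by at most 0.367 under cyclic loess and quantile normalization. Centring shifts every gene by the same 0.05, and dropping the filter leaves each gene's difference as it is. Neither could move a gene past that limit, so they are no check on single genes. None of the named genes 2-fold apart changed direction under cyclic loess or quantile normalization, and direction was not checked for smaller differences. Without probe sets that can match several transcripts, 152 named genes stayed within that limit, 13 moved and 1 reversed, and the others had no probe set left. With the mean of a gene's probe sets 32 moved.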

Other observations

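Keratin and junction genes were described in no comparison above. As a list of 25 expressed members they did not shift, with 13 higher and 12 lower in APAP and a median of 0.04, but some adhesion genes were lower on every expressed probe set. Cldn3, a tight junction claudin, had 4 expressed probe sets, all lower in APAP by between 0.77 and 0.88, and on the brightest its level was 10.40 in APAP, 11.21 in AMAP and 10.62 in control. Dsg2, a desmosomal cadherin, had 4 expressed probe sets with differences between -0.98 and -0.69, and a level of 7.17 in APAP, 8.15 in AMAP and 8.58 in control. Dsp, which anchors keratins to desmosomes, had 3 with differences between -1.87 and -0.36. Dsc2, another desmosomal cadherin, went the other way on 1 expressed probe set, with 6.48 in APAP, 5.80 in AMAP and 5.44 in control. Krt20, a keratin of epithelial cells, was higher with 10.01 in APAP, 9.01 in AMAP and 8.82 in control, on 1 probe set.

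Among matrix and TGF-beta response genes, Skil, a repressor of SMAD signalling, was at 7.53 in APAP, 8.63 in AMAP and 9.06 in control, with differences of -1.10 and -0.28. Id1 had a difference of -0.67 and its relative Id2 one of 1.10. Hif1a, the hypoxia-inducible factor, was at 7.18 in APAP, 8.28 in AMAP and 8.61 in control, with differences of -1.10 and -0.34.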
